A study of Mus musculus with 4 samples.

Results

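Atrial cardiomyocytes were taken from single-cell RNA sequencing of mouse hearts at stage E10.5, as cells with a high level of Tnnt2, with the atrial genes Stard10 or Myl1 and almost no Myl2. They were 1544 of the 28025 cells kept, and 9776 of the kept cells held at least 10 UMIs (unique molecular identifiers, each standing for 1 RNA molecule) of Tnnt2, the cardiac troponin T gene, per 10000 UMIs. There were 4 libraries, 2 from wild-type hearts (Wt1 and Wt2) and 2 from hearts homozygous for the Cyp51 I383V substitution (Ho1 and Ho2), which was made by CRISPR/Cas9 knock-in on the C57BL/6J strain, and the labels name CRISPR/Cas9 as the treatment of all 4 libraries, wild-type included. The knock-in is constitutive, so that every cell of a Ho heart carries it. Cyp51 (GRCm38, chr5:4081145-4104746, minus strand) encodes lanosterol 14-alpha-demethylase, an enzyme of cholesterol synthesis. The number of hearts in a library is not given in the sources used here, so that p-values measure the spread between libraries, and values below are given in the order Wt1, Wt2, Ho1 and Ho2.

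The early heart tube forms atrial chambers at its inflow end and ventricular chambers toward its outflow end. Atrial muscle uses its own myosin light chains and fast myosin heavy chain, keeps Tbx5 and the nuclear receptors Nr2f1 and Nr2f2 on, and lacks the Irx and Hey2 factors that act in ventricular muscle.

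The cells were chosen by measured values, which are therefore given as a description with no test. A cell had at least 10 UMIs of Tnnt2 and fewer than 5 of Myl2 per 10000 UMIs, at least 3 UMIs of Stard10 and Myl1 together, no UMI of Shox2 or Bmp2 and at most 1 of Sema3c. The last 3 genes mark the sinus venosus, the atrioventricular canal and the outflow tract. The rule found 280, 415, 491 and 358 cells. Ventricular cardiomyocytes, with at least 10 UMIs of both Tnnt2 and Myl2 per 10000, numbered 4887, in 639, 1271, 1968 and 1009 cells. Before these 3 limits, 571, 776, 1005 and 839 cells were left. Taken alone, the limit on Shox2 removed 235, 244, 315 and 363 of them. That on Bmp2 removed 94, 169, 253 and 236, and that on Sema3c 20, 14, 25 and 44.

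In the summed atrial cells, Stard10 stood at 343, 377, 337 and 342 CPM (counts per 1000000 UMIs after normalization between sums) against 36, 27.9, 39.6 and 33.6 CPM in ventricular cells. Myl2, the ventricular regulatory light chain, stood at 34.7, 49.3, 60.1 and 51.6 CPM against 5501, 5485, 5488 and 5448 CPM. Myl1 was at 868, 1250.4, 1163 and 974 CPM against 485, 564, 633 and 507 CPM, a smaller gap than that of Stard10. Tnnt2, which chose both classes, had 3425, 3653, 3510.1 and 3617 CPM in atrial cells. At the edge of the rule, 68 cells had exactly 3 UMIs of Stard10 and Myl1, and 91 further cells had 2 and were left out. Myh6 stood at 2966, 2531, 1826 and 1904 CPM of all UMIs in the former and at 1615, 1750, 843 and 2584 in the latter, so that the step between them did not hold in Ho2. The kept cells at this edge held less Nppa than the whole class, 199, 58.7, 144 and 118 CPM against 2401, 3378, 2657 and 3263 CPM of all UMIs. They also held Myh7, the beta myosin heavy chain of ventricular muscle, at 128, 241, 1981 and 511 CPM against 111, 112, 106 and 133 CPM in the class. In Ho1, the 12 kept cells with 4 to 5 UMIs of Myl2 per 10000 held 1676 CPM of Myh7 as well, so that some kept cells at the edges carried a ventricular gene.

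The atrial sums held 4888046, 9319484, 10649553 and 7663395 UMIs, with the smallest sum in Wt1, which also had the fewest atrial cells. A cell had a median of 18032, 23688, 21976 and 22666 UMIs. Ho1 stood apart in a different way, since its atrial cells held 2091 UMIs of Xist, the RNA of the inactive X chromosome, and 0 of the Y-linked genes Ddx3y, Eif2s3y, Uty and Kdm5d. The other libraries held 0, 1 and 0 UMIs of Xist (Wt1, Wt2 and Ho2) and 124, 241 and 234 of Ddx3y. Results that rest on Ho1 are therefore also given without it. Between 7 and 28 cell barcodes were shared by each pair of libraries, 90 in all.

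Of the markers outside the rule, some were shared with ventricular cells and others were not. Myl7, the atrial regulatory light chain, and Myl4, the atrial essential light chain, were detected in 100% of the atrial and of the ventricular cells of every library. Myh6, the fast alpha myosin heavy chain, was detected in 96.1, 97.8, 98.0 and 96.6% of atrial and in 88.4, 91.3, 97.9 and 96.7% of ventricular cells, so that the detection of these 3 genes does not set the classes apart. Nr2f1 was detected in 64.3, 74.7, 63.1 and 71.2% of atrial cells, in 5.95, 6.69, 10.4 and 9.12% of ventricular cells, and in 8.75, 9.74, 7.82 and 10.2% of endothelial cells. Its share in ventricular cells was thus near that in endothelial cells. Nppa, the precursor of atrial natriuretic peptide, varied widely among atrial cells, with a median of 2.52, 12.3, 6.11 and 7.23 UMIs per 10000 and a 90th percentile of 77.8, 91.6, 67.7 and 83.5. Sln, the sarcolipin gene, was found in 6.07, 7.95, 6.11 and 7.26% of them, so that most atrial cells of this stage had no UMI of it.

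Markers of other cell types were also counted in the atrial sums. The 10 endothelial markers came to 103, 97.9, 129 and 67.6 CPM of all UMIs, with Egfl7 the most abundant and none at 0, against 87.8, 85.3, 106 and 55.9 in ventricular cells. The 10 mesenchymal markers, led by Col3a1, came to 108, 72.6, 97.3 and 56.5 CPM, and the 9 blood genes, led by Hbb-y, to 3.27, 6.55, 21.1 and 12.5 CPM. The 7 epithelial markers, led by Krt18, came to 112, 104, 106 and 170.4 CPM, highest in Ho2 and with 1 of the 7 at 0 in every library, against 117, 73.3, 62.9 and 92.7 in ventricular cells. The 7 epicardial markers, led by Krt19, came to 42.8, 45.1, 39.8 and 53.4 CPM. The 7 macrophage markers, led by Tyrobp, came to 10.4, 6.44, 0.470 and 0.130 CPM, with 2 of the 7 at 0 in every library. At least 2 endothelial UMIs were found in 22.9, 32.8, 36.3 and 27.7% of atrial cells and in 18, 23.5, 27.3 and 21.3% of ventricular cells. The Scrublet caller marked 5.00, 4.82, 6.52 and 2.23% of atrial cells as doublets. These were kept, and the part of mixed cells in the results was not tested beyond the alternatives without them.

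To see which genes set atrial cells apart, the sums of both classes were compared within libraries with edgeR's quasi-likelihood test. Of 12084 genes, 2189 were called higher in atrial cells (18.1%) and 2212 lower (18.3%) at an adjusted p under 0.05, and 307 and 410 of them by more than 2-fold. Both classes were selected on expression in the same cells, so that a call here says how repeatable a difference was over 4 libraries and is no independent test that the classes differ. With DESeq2 2702 genes were called in place of 4401. Where a standard error (SE) stands beside a log2 fold change, it is taken over 4 libraries.

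The start sites of the 3 chamber myosin genes that the comparison turns on are shown, because Myl7 and Myh6 were higher and Myh7 lower in atrial cells. Each is the 250 bases before the start site on the minus strand, 5′ to 3′, from RefSeq on GRCm38.p6, at chr11:5898783-5899032 for Myl7, chr14:54966608-54966857 for Myh6 and chr14:54994627-54994876 for Myh7, whose table holds a second start site that is not shown. In GENCODE M21 the Myh6 gene spans chr14:54941921-54966927, so that the Myh6 window lies inside the gene there. Capitals mark a match to one of 5 motifs, searched on both strands.
Myl7: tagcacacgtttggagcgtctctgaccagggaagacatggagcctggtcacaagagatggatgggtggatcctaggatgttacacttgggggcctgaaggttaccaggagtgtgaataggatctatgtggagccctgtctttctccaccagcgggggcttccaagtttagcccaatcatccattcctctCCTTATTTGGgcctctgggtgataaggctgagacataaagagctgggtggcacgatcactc
Myh6: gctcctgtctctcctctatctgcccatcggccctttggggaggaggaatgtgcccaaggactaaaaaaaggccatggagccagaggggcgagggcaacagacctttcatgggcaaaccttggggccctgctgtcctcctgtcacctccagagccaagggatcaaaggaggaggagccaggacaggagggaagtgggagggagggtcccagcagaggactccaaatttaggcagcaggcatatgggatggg
Myh7: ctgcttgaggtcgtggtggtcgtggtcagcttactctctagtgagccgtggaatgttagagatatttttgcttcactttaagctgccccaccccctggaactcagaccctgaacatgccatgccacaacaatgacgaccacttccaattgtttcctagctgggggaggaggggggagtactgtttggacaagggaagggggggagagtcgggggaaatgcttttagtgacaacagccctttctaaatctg
The motifs were AGATAA for GATA factors, GGTGTGA for T-box factors, AGGTCA for the core site of nuclear receptors, and the CArG and MEF2 motifs. Among 27025 promoters of the same length they were found in 10.3, 3.31, 13.8, 1.40 and 3.01%, respectively. The only match in these 3 windows was a CArG element, CCTTATTTGG, which begins 61 bases before the start of Myl7. A match describes the letters and not a bound site, and the windows of Myh6 and Myh7 merely lack these letters.

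The myosins differed in level and in degree. Myl7 stood at 29786, 30077, 31837 and 29306 CPM in atrial and at 19564, 17172, 18823 and 17849 CPM in ventricular cells. All 4 atrial sums lay above all 4 ventricular ones, and the log2 difference was 0.72. Myh6 was at 3539, 3690.4, 3463 and 4086 CPM against 1350.3, 1421, 1557 and 1672 CPM, a log2 difference of 1.30. Myl4 was higher by a log2 of 0.45 ± 0.05 (SE). In the opposite direction, Myh7, the slow beta heavy chain, was at 109, 109.8, 109.7 and 129 CPM against 3008, 3185, 2757 and 3531 CPM. A few atrial cells carried much of this level, since the median cell had 0, 0.292, 0.301 and 0.298 UMIs of Myh7 per 10000 against means of 1.03, 1.13, 1.14 and 1.43. The log2 difference of -4.76 was far from that of Myl3, the ventricular essential light chain, at -1.13. Nppa was not called, with a log2 difference of 0.19, and its atrial values of 2352, 3299, 2747 and 3176 CPM overlapped the ventricular values of 1534, 3817, 3009.6 and 2249 CPM.

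**Figure D1:**
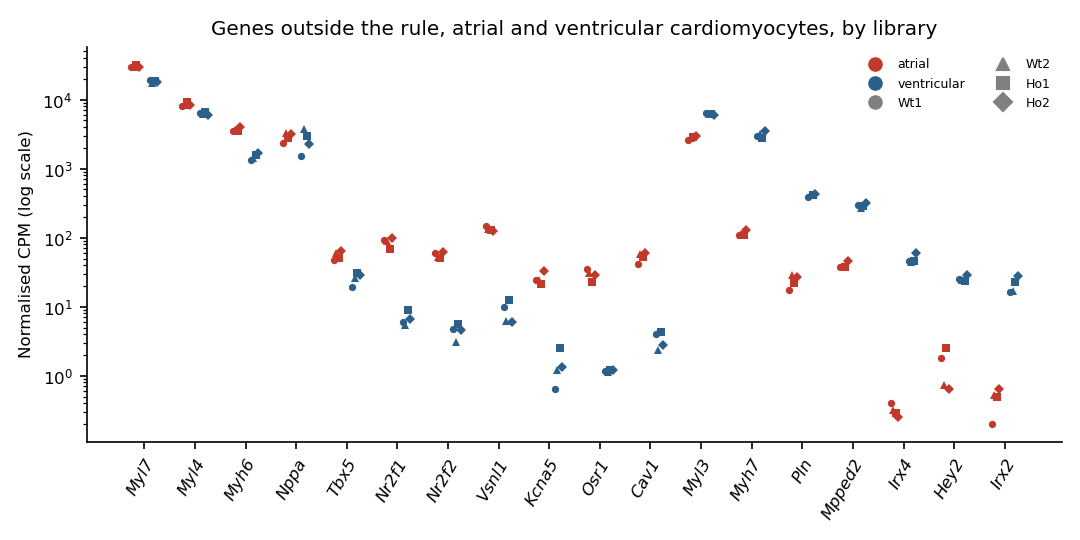
Normalised CPM on a log axis of genes outside the rule, with 1 point for each library and class. Myl7 and Myl4 were high in both classes, Nr2f1 was between 68.5 and 99.2 CPM in atrial and below 10 CPM in ventricular sums, and Irx4 and Myh7 were low in all 4 atrial sums.

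Regulators of the atrial state were among the largest differences. Nr2f1 stood at 91.8, 90.2, 68.5 and 99.2 CPM in atrial cells against 5.94, 5.41, 9.05 and 6.74 CPM, a log2 difference of 3.59. Nr2f2, a related nuclear receptor, was at 59.1, 53.3, 51.0 and 62.9 CPM against 4.75, 3.09, 5.59 and 4.56 CPM, with a log2 difference of 3.62 ± 0.11 (SE). Both genes were separated in every library. Osr1, a zinc finger factor known from the dorsal mesocardium and atrial septum, was at 35.7, 30.6, 22.8 and 28.8 CPM against 1.19, 1.12, 1.20 and 1.21 CPM (log2 4.55 ± 0.12, SE). Tbx5, the T-box factor of the inflow end of the heart, was higher by a smaller step, 47.1, 60.2, 51.6 and 64.0 CPM against 19.6, 26.0, 30.9 and 28.6 CPM.

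Other atrial genes encode membrane and calcium-binding proteins. Kcna5, a potassium channel of the atrial action potential, stood at 24.6, 24.2, 21.7 and 32.8 CPM against 0.648, 1.20, 2.5 and 1.35 CPM. Cav1, the caveolin of surface membrane pits, was at 41.1, 58.9, 52.8 and 60.8 CPM against 4.00, 2.40, 4.32 and 2.84 CPM. Vsnl1, a neuronal calcium sensor, was at 146, 135, 129.9 and 127 CPM against 10.0, 6.25, 12.6 and 5.95 CPM. Each of these 3 genes differed by a log2 of about the size of Nr2f1, namely 3.94, 4.02 and 3.93. Pvalb (parvalbumin, a calcium buffer), Svep1 (a matrix protein), Fst (follistatin, which binds activins), Trabd2b, Baiap2l2 and the antisense gene 2610204G07Rik completed the 12 leading genes, at log2 values of 4.10, 3.96, 3.13, 3.32, 3.06 and 4.66. Reads of 2610204G07Rik were not checked against genes on the opposite strand.

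Genes that were lower in atrial cells were led by ventricular factors. Irx4, a homeobox factor of ventricular muscle, stood at 0.401, 0.314, 0.291 and 0.254 CPM in atrial cells against 46.1, 44.6, 45.8 and 59.3 CPM, a log2 difference of -7.28. Irx1 and Irx2 followed at -5.73 and -5.43. Hey2, a repressor downstream of Notch, was at 1.80, 0.734, 2.52 and 0.635 CPM against 24.9, 24.1, 23.2 and 29.1 CPM. Prdm16 (a zinc finger regulator of compact ventricular wall), Pcsk6 (a protease that processes TGF-beta family ligands), Fgf9 (a growth factor), Wdr93, 3425401B19Rik and Lyz2 (lysozyme) were lower by log2 values of 5.18, 5.52, 4.72, 4.88, 4.5 and 4.47, respectively, which together with Myh7 and Pln made up the 12 leading genes in this direction. All 24 leading genes of both directions were called under every alternative in which they were tested, 14 for 11 of them and 13 for the other 13, which a stricter filter on low counts left out.

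Calcium handling was divided. Pln, which encodes phospholamban, the brake on the calcium pump of the sarcoplasmic reticulum, was at 17.2, 28.4, 21.7 and 26.5 CPM in atrial cells against 385, 417, 412 and 424 CPM (log2 -4.11). The pump itself, Atp2a2, was at 978, 1021, 960.4 and 1183 CPM against 514, 501, 549.8 and 627 CPM (log2 0.92 ± 0.04, SE). The brake was thus lower and the pump higher in all 4 libraries. Casq1, a calcium store protein, was higher by 1.30 ± 0.05 (SE), and Ryr2, the release channel, by 0.36. Of the connexins, Gja5 was higher by 1.12 ± 0.12 (SE) and Gja1 lower, with -1.75 ± 0.12 (SE). Of 30 tested genes of calcium handling and channels, 15 were called higher (18.1% of all genes) and 9 lower (18.3% of all genes).

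Gene lists are given by their counts, to be read beside the 18.1% of all genes called higher and 18.3% called lower, and beside a median log2 difference of 0.0019 over all genes. Of 17 tested atrial genes outside the rule, 15 were called higher and 0 lower, with Nppa and Dkk3 not called, and of 18 ventricular genes 16 were called lower and 1, Tnni3 (the cardiac troponin I gene), higher. Both lists were written for this division, so that these counts describe the choice of cells. Of 79 respiratory chain genes, 46 were called lower and only Cox6a2 (a muscle subunit of cytochrome oxidase) higher, with a median of -0.16. Glycolysis had 12 of 22 genes lower, among them Hk1, Hk2, Ldha and Pkm, and 2 higher, with a median of -0.16. In S phase 14 of 38 genes were lower and 3 higher, and in G2/M phase 11 of 51 were lower, a share near that of all genes, and 3 higher. Of 25 genes of dissociation and heat shock, 18 were called higher, with a median of 0.43, and Fos stood at 252, 286, 258 and 352 CPM against 186, 162, 211 and 244 CPM. The part of tissue handling in that list was not tested.

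**Figure D2:**
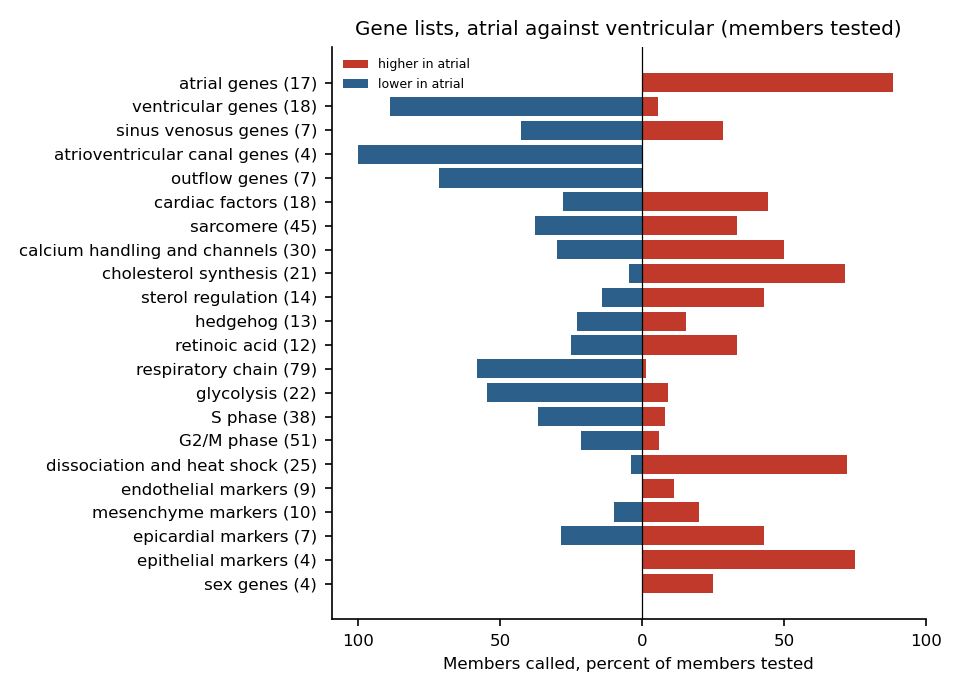
Percent of the tested members of each gene list that were called higher (right) or lower (left) in atrial than in ventricular cells, with the number tested in brackets. Atrial genes and cholesterol synthesis lie to the right, ventricular and respiratory chain genes to the left.

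Smaller regional programs were split as well. All 4 tested genes of the atrioventricular canal, Tbx2, Tbx3, Msx2 and Rspo3, were lower in atrial cells, and so were 5 of 7 of the outflow tract (18.3% of all genes). The limits on Shox2, Bmp2 and Sema3c had removed cells from the atrial class only, and ventricular cells had no such limits. The differences in canal, outflow tract and sinus venosus genes are therefore not free of the choice of cells. Of the sinus venosus genes, Cpne5 stood at 84.8, 94.4, 78.5 and 86.6 CPM against 24.4, 26.0, 28.2 and 24.7 CPM, and Hcn4, the pacemaker channel, was called lower with -0.54 ± 0.12 (SE), although it was higher in Wt1. Retinoic acid signals pattern the inflow end of the heart. Crabp2, which carries retinoic acid into the nucleus, was higher by 1.83 ± 0.11 (SE), and Aldh1a2, the enzyme that makes it, by 2.99 ± 0.26 (SE) at only 3.21, 2.62, 4.08 and 4.06 CPM. Of 12 retinoic acid genes tested, 4 were higher (18.1% of all genes) and 3 lower (18.3% of all genes). Of the 9 tested endothelial markers only Kdr was called, at 24.0, 21.0, 21.1 and 17.1 CPM against 7.78, 6.85, 12.4 and 6.97 CPM.

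Cholesterol synthesis, the pathway of the mutated enzyme, was higher in atrial than in ventricular cells of both genotypes. Of its 21 genes, 15 were called higher (18.1% of all genes) and 1, Lbr, lower (18.3% of all genes). The median log2 difference was 0.48 beside 0.0019 over all genes. The summed level of the 21 genes was 1159, 1148, 1165 and 1433 CPM of all UMIs in atrial cells and 734, 818, 861 and 852 CPM in ventricular cells, with 902, 887, 865 and 904 CPM in endothelial cells. Atrial cells were thus the highest of these 3 classes in every library. Over all kept cells the level was 1087, 971, 941 and 1114 CPM of all UMIs, above both the ventricular and the endothelial level, so that cells outside these classes held high levels too. Cyp51 itself stood at 67.1, 66.1, 71.3 and 84.0 CPM in atrial cells against 39.8, 45.1, 49.5 and 45.5 CPM, a log2 difference of 0.67. Fdps, which makes farnesyl pyrophosphate and is the most abundant of the list, was at 247, 235, 284 and 305 CPM against 163, 174, 182 and 181 CPM. The largest difference was that of Hsd17b7, which acts on the sterol ring after Cyp51, at 41.5, 50.4, 42.2 and 50.05 CPM against 15.0, 17.7, 17.5 and 18.3 CPM. Msmo1, the methyl sterol oxidase, differed by 0.91 ± 0.07 (SE).

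**Figure D3:**
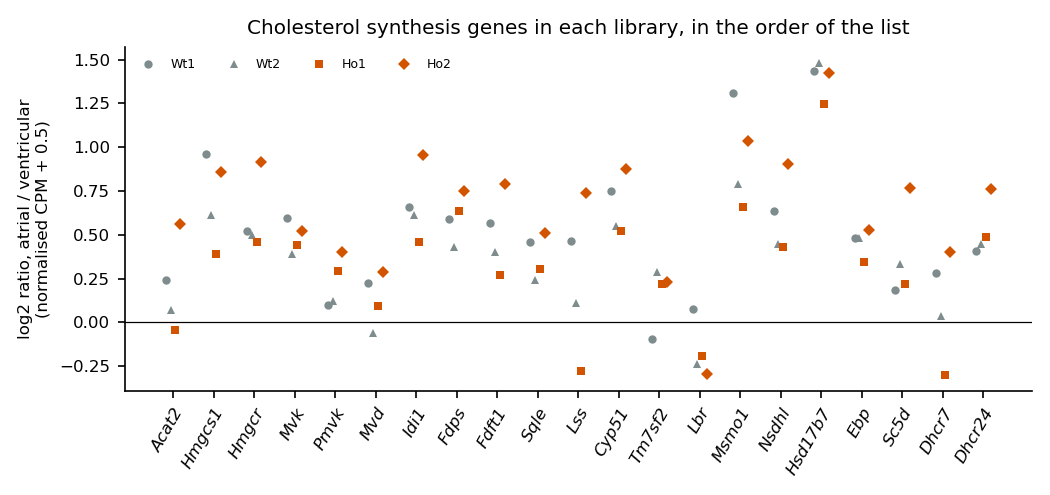
Log2 ratio of atrial to ventricular normalised CPM (with 0.5 added) for the genes of cholesterol synthesis, 1 point for each library, Wt in grey and Ho in orange. Hsd17b7 lies highest and Lbr is the only gene called lower.

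Regulators of sterol supply were in part higher too. Insig1, which holds the sterol sensor in the endoplasmic reticulum, was at 15.8, 18.9, 20.9 and 28.2 CPM in atrial cells against 8.86, 9.98, 14.3 and 13.7 CPM. The transcription factor gene Srebf2 differed by 0.31 ± 0.06 (SE), and Nr1h3, the oxysterol receptor LXR-alpha, by 2.83 ± 0.16 (SE) at 9.42, 6.50, 7.77 and 9.53 CPM. In all, 6 of 14 tested genes of sterol regulation were higher (18.1% of all genes) and 2, Npc2 and Soat1, lower (18.3% of all genes).

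The study's question was what the Cyp51 substitution changed in these hearts, and few genes differed between Ho and Wt atrial cells. By edgeR's quasi-likelihood test over the 4 atrial sums, 11 of 11857 genes were called at an adjusted p under 0.05 (0.0928%), 5 higher and 6 lower in Ho, and 455 had an unadjusted p under 0.05. Both Ho sums lay above both Wt sums for 14.9% of the genes and below them for 16.1%. The count depended on single libraries, since 30, 48, 76 and 80 genes were called without Wt1, Wt2, Ho1 and Ho2 in turn. When cells with Shox2, Bmp2 or more Sema3c were let in, edgeR called 0 genes, with 552 at an unadjusted p under 0.05. Adjusted p-values below are those of this edgeR test.

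Rspo3 (chr10:29452416-29535867), a secreted amplifier of Wnt signals, had the largest increase among the called genes. It stood at 5.51, 6.57, 17.0 and 15.4 CPM, a log2 change of 1.40 ± 0.19 (SE, adjusted p = 0.0174), on 27, 62, 175 and 120 UMIs in 13, 26, 44 and 27 cells. Ventricular cells held far more of it, 94.5, 58.9, 84.8 and 94.6 CPM of all UMIs, with no such order of the genotypes. Rspo3 also belongs to the lists of the atrioventricular canal and the outflow tract. Of the 4 tested canal genes, both Ho values lay above both Wt values for 1, Rspo3 (14.9% of all genes), and below for 1 (16.1% of all genes). The part of cells from these regions in the rise was not tested. Mylpf (chr7:127208890-127214298), the regulatory light chain of fast skeletal muscle, stood at 152, 152, 247 and 289 CPM and rose by 0.81 ± 0.11 (SE, adjusted p = 0.0174). In ventricular cells it was at 141, 127, 185 and 169 CPM of all UMIs, also higher in both Ho libraries, and in endothelial cells at 5.95, 5.80, 10.3 and 5.66.

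The other genes that rose were also measured in endothelial cells. Rps27rt (chr9:114982366-114982739), a retrotransposed copy of the ribosomal gene Rps27 whose reads may be shared with its parent gene, stood at 26.9, 27.4, 47.3 and 63.5 CPM (log2 1.02 ± 0.15, SE, adjusted p = 0.0174). Its endothelial values were 35.7, 32.7, 56.6 and 74.7 CPM of all UMIs. The long noncoding RNA B230312C02Rik (chr2:180370491-180385885) was at 17.8, 13.4, 35.1 and 28.4 CPM in atrial cells (log2 1.07 ± 0.17, SE, adjusted p = 0.0232), and 1 cell of Ho1 held 73 of its 360 UMIs there. Wdr89 (chr12:75630596-75669537), a WD-repeat gene, rose by 0.68 ± 0.12 (SE, adjusted p = 0.0467), and its endothelial levels were 46.1, 48.8, 77.3 and 84.8 CPM of all UMIs. It was not called without Wt2 or with DESeq2.

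A histone and a chemokine gene fell. Hist1h1e (chr13:23620629-23622558), a linker histone, stood at 123, 111, 68.7 and 71.6 CPM and fell by a log2 of 0.74 ± 0.11 (SE, adjusted p = 0.0174). Its levels had the same order of genotypes in ventricular cells, at 98.8, 110.3, 56.6 and 74.8 CPM of all UMIs, and in endothelial cells, at 109, 120, 71.5 and 68.2 CPM. Cxcl12 (chr6:117168535-117181367), a chemokine that guides coronary vessel cells, was at 18.6, 15.7, 8.48 and 8.61 CPM, with a change of -0.98 ± 0.17 (SE, adjusted p = 0.0483). It was lost from the calls with DESeq2 and in 5 other alternatives, among them those without cells holding endothelial or macrophage UMIs. Its log2 change lay between -1.12 and -0.68 over all 16 alternatives. In ventricular cells Cxcl12 was at 65.8, 62.0, 55.4 and 57.5 CPM of all UMIs, also lower in both Ho libraries. Its endothelial level was 28.8, 24.5, 5.42 and 25.2 CPM of all UMIs, where Ho1 stood alone. Without Ho1, all 7 of the genes named here as changed were still called.

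**Figure D4:**
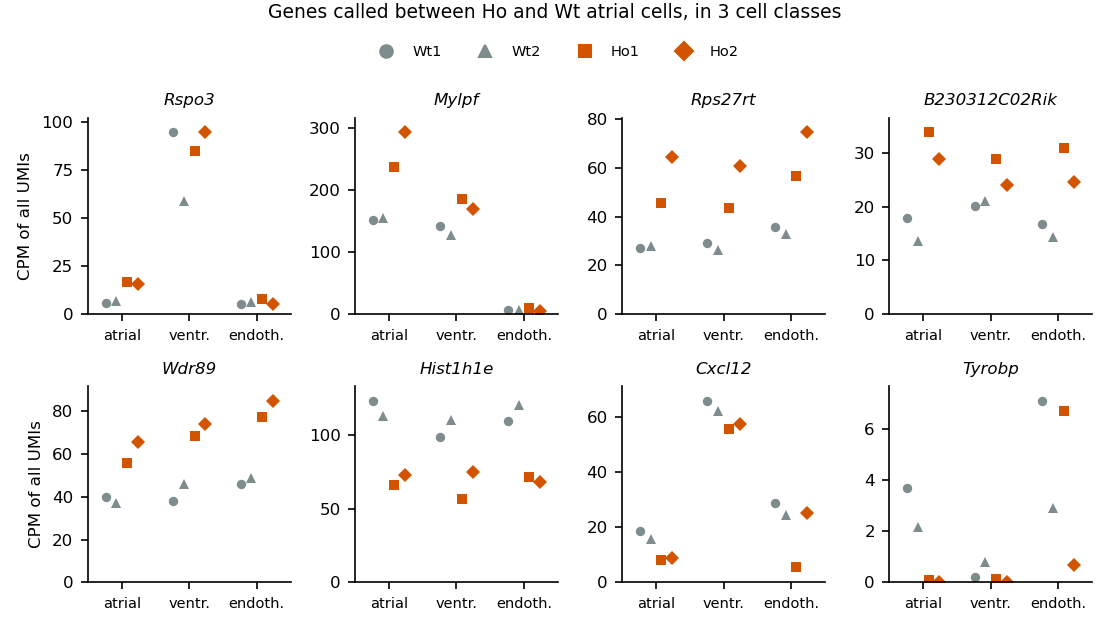
CPM of all UMIs (linear axes from 0) of the 7 named genes called between Ho and Wt atrial cells, and of the called macrophage marker Tyrobp. Values are for atrial, ventricular and endothelial cells, 1 point for each library. Hist1h1e, Rps27rt, Wdr89 and B230312C02Rik separated the genotypes in all 3 classes, and Mylpf and Cxcl12 in atrial and ventricular cells. Rspo3 did so in atrial cells and not in the other 2 classes, although the test of the difference of its effects between atrial and ventricular cells did not call it.

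The remaining 4 called genes, Tyrobp, C1qb, C1qc and Fcer1g, are markers of macrophages and came from single cells. Of 51 macrophage UMIs in Wt1 atrial cells 49 lay in 1 cell, and of 60 in Wt2 55 lay in 1 cell, while Ho1 and Ho2 held 5 and 1. Without the cells that held a macrophage UMI, an alternative chosen after these values were seen, 5 genes were called, Rspo3, B230312C02Rik, Rps27rt, Mylpf and Hist1h1e.

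Between genotypes, the abundant atrial genes Myl7 (log2 0.02 ± 0.18, SE), Myh6 (0.05 ± 0.15, SE) and Nppa (0.06 ± 0.17, SE) had differences smaller than their SE. Of the 17 tested atrial genes outside the rule, 0 were called, which sets them apart from no other list of this size, since 0.0928% of all genes were called, and does not show that they were equal. No list other than those of Rspo3 and the macrophage markers held a called gene. Of the 16 tested ventricular genes, both Ho values lay above both Wt values for 6 (14.9% of all genes) and below for 2 (16.1% of all genes). Myl2, a gene of the rule, was among these 6, so that the count is not free of the choice of cells. For the 7 tested sinus venosus genes these counts were 0 above and 3 below. In G2/M phase both Ho values lay below both Wt values for 11 of 51 genes, near the 16.1% of all genes, and above for 2 (14.9% of all genes), and in S phase above for 12 of 38 and below for 2, with 0 called in either. Among outflow tract genes both Ho values lay below for 4 of 7 (16.1% of all genes) and above for 1, the called Rspo3 (14.9% of all genes). Sema3c, which the rule held to at most 1 UMI in a cell, was among these 4, on 8, 16, 11 and 12 UMIs. Crabp1, a retinoic acid binding protein of this list, stood at 25.7, 14.1, 7.60 and 9.77 CPM (adjusted p = 0.228).

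Cyp51 stood at 68.4, 66.9, 71.5 and 85.0 CPM between genotypes, a difference of 0.21 ± 0.12 (SE) that was not called. None of the 21 genes of cholesterol synthesis was called, a count near the 0.0928% of all genes. Both Ho values lay above both Wt values for 9 of the 21 genes (14.9% of all genes) and below for 1 (16.1% of all genes), and the median log2 difference was 0.20 beside -0.0022 over all genes. Insig1 stood at 16.1, 19.1, 20.9 and 28.5 CPM and was not called. The summed level of the 21 genes set Ho2 apart, since it was 1433 CPM of all UMIs there, while that of Ho1, 1165, was near the 1159 and 1148 of the Wt libraries. Ho2 also had the highest median share of mitochondrial UMIs. This share was 1.22, 1.24, 1.22 and 1.89% in atrial and 1.48, 1.51, 1.69 and 2.38% in ventricular cells. Its part in the level of Ho2 was not tested.

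Hedgehog signalling, which needs cholesterol on its ligand and at its receptors, was measured in atrial cells mainly through its receptors and co-receptors, since its ligand and its readout gene were close to the limit of detection. Gli1, the transcription factor that reads out the pathway, had 4, 1, 1 and 7 UMIs in all, and the cells with a UMI were 1.43, 0.241, 0.204 and 1.68% of atrial cells, with median depths of 18032 to 23688 UMIs. In ventricular cells the shares were 0.939, 0.708, 0 and 0.297%, on 6, 9, 0 and 4 UMIs. They were lower in both Ho libraries, an order that was not tested. Endothelial cells gave shares like the atrial ones, 1.14, 0.686, 0.165 and 1.45%, so that atrial cells were not set apart from them. After each cell was thinned to 5000 UMIs, 0 of 388 cells of Wt2 held one, which allows up to 0.773% of cells with a Gli1 UMI at that depth (3 counts) and sets no limit on cells that express the gene. Shh, the ligand, had 0, 3, 0 and 6 UMIs. Ptch1 and Smo, the receptors of the pathway, were at 16.3, 14.1, 16.3 and 14.8 CPM and at 16.5, 12, 11.5 and 11.2 CPM, with differences of 0.05 ± 0.16 and -0.29 ± 0.18 (SE) that were not called. The co-receptor genes Cdon and Boc were lower in both Ho libraries and not called either. Cdon was at 7.96, 9.22, 5.07 and 6.04 CPM (log2 -0.66 ± 0.22, SE, unadjusted p = 0.00968 and adjusted p = 1.00 by edgeR) and Boc at 1.63, 2.33, 0.974 and 1.29 CPM, on 8, 22, 10 and 10 UMIs, while the values of the co-receptor gene Gas1 overlapped. Of the 12 tested genes of the pathway, both Ho values lay below both Wt values for 4 (16.1% of all genes) and above for 1 (14.9% of all genes), and 0 were called. Gata4, a cardiac transcription factor, was at 39.8, 46.8, 47.6 and 54.5 CPM (0.22 ± 0.12, SE, not called).

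The difference between the genotype effects of atrial and ventricular cells was tested directly. Of 12596 genes, 2 were called (0.0159%), with 921 at an unadjusted p under 0.05. Gal, the precursor of the neuropeptide galanin, was at 28.6, 18, 8.14 and 15.1 CPM in atrial and 17.8, 14.5, 41.0 and 25.3 CPM in ventricular cells, with the genotypes in opposite order in both classes (difference of -2.06 ± 0.31, SE, adjusted p = 0.0468). It was called in 8 of 15 alternatives, and was lost without Wt1, without Wt2, with DESeq2, with at least 10 counts in every sum, with doublets removed, and without cells with endothelial UMIs. The difference was -1.23 without Ho1 and -2.80 without Ho2, both still called, and -0.37, not called, with no limits on Shox2, Bmp2 and Sema3c. Gm45509 rested on 1 atrial cell of Ho2 with 61 of the 63 UMIs there. For Rspo3 the difference of effects was 1.11 ± 0.22 (SE, adjusted p = 0.164) and not called. The count of calls was 3, 5, 16 and 5 without Wt1, Wt2, Ho1 and Ho2.

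Atrial cells were 17.8% (95% Clopper-Pearson interval 15.9 to 19.8), 17.0%, 14.4% and 15.2% of the cells with at least 10 UMIs of Tnnt2 per 10000. The Wt share was 17.4% ± 0.542 and the Ho share 14.8% ± 0.512 (SD, n = 2 each), a difference of -2.61 percentage points. The groups did not overlap, but the exact two-sided permutation test gave p = 0.3333, the smallest that 2 against 2 libraries allow. Of all cells kept, atrial cells were 3.38, 6.07, 7.08 and 6.00%. The order of the means was turned there, with a difference of 1.82 points (exact permutation p = 0.667), but the groups overlapped. The shares count cells of the dissociated tissue and may follow how other parts of the heart were recovered, which was not tested.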

How the data were processed

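The authors counted UMIs per gene and barcode with Cell Ranger 6.1.1 on mm10 (Seurat 4.1.0 is named for later steps), and deposited raw counts for called cells of each of 4 libraries. Barcodes with 500 to 6000 genes, 2000 to 50000 UMIs and at most 20% mitochondrial UMIs were kept. UMIs were summed per library and class (4888046 to 10649553 in atrial sums). edgeR 4.0.16 in R 4.3.3 fitted each comparison (TMM, filterByExpr, Benjamini-Hochberg, threshold 0.05), with library as a block and without the 7 genes of the rule in the calls where classes were compared. The fit was also tried on simulated data, whose outcome is not given here. Endothelial cells had at least 5 endothelial UMIs. Scrublet in scanpy 1.11.5 marked doublets, which were kept. DESeq2 1.42.0, another scaling, other filters, thinning, other cell rules and leaving out libraries were tried. Intervals cover counting error only. Named genes were up to 12 per direction of largest change among those called, with at least 10 CPM in 1 group and the same direction in every library, or, for Ho against Wt, groups that did not overlap, besides the genes of the rule, of the study and of 24 lists. The cells and lists were chosen with earlier results of these data known. A planned comparison within the atrial cells and some genes are not reported here. Positions are those of GENCODE M21, which held 99.6% of 32285 gene identifiers.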

Additional observations from a re-analysis of the deposited data

Results flagged for a closer look

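The genotype effects of atrial and ventricular cells differed by the interaction test for 2 genes. Gm45509 had a fitted log2 difference of effects of 7.32, on 1, 0, 6 and 63 atrial UMIs in Wt1, Wt2, Ho1 and Ho2, of which 61 lay in 1 cell of Ho2, and on 6, 47, 8 and 14 ventricular UMIs. Gal had a difference of -2.06, on 143, 172, 84 and 119 atrial and 165, 361, 1578 and 544 ventricular UMIs, with up to 45 in 1 atrial cell of Wt1 and up to 188 in 1 ventricular cell of Ho1. Ho1 also held 212 UMIs of Gal in endothelial cells, against 12, 13 and 39 in Wt1, Wt2 and Ho2, and without Ho1 the difference was -1.23 and still called. The part of the single cells in the result was not tested.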

How the results depend on the processing

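With 2 libraries a genotype, leaving 1 out keeps a lone library that is assumed to vary like the other group. Between genotypes in atrial cells, 11 genes were called, against 5 with DESeq2, 69 with no filter on low counts, 0 with no limits on Shox2, Bmp2 and Sema3c, 5 without cells holding macrophage UMIs (chosen after seeing the data), and 30 to 80 when a library was left out. Rspo3, B230312C02Rik, Rps27rt, Mylpf and Hist1h1e were called in 15 of 16 alternatives, Wdr89 in 11 and Cxcl12 in 10, and no sign was reversed. Of atrial against ventricular calls, 4401, DESeq2 called 2702, of which 2696 were shared, and other settings gave 3147 to 5708. The difference of effects, with 2 calls, gave 0 with DESeq2 (98 at an unadjusted p under 0.05), 0 with at least 10 counts in every sum (783), 0 with doublets removed (918), 1 with no limits on the 3 regional genes, 52 with no filter, 11 with sums thinned to the smallest, 28 under a stricter rule, 12 without cells with endothelial UMIs, and 3 to 16 when a library was left out. The difference in share of -2.61 points was -3.52 after thinning, -1.52 with no limits, 1.82 of all cells kept, and -2.99 to -2.23 when a library was left out. With the replicate number as a replicate block, 39 genes were called between genotypes and 41 for the difference of effects, but the numbers share no stated litter or day and same-numbered libraries did not deviate together (r = 0.0651 over genes), so that they do not pair the samples. The cause of these shifts was not tested.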
